A study of Mus musculus with 2 samples.

Results

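The hypoxia response and glycolysis genes are 34 mouse genes out of 21911 protein-coding genes measured. They sense low oxygen, carry glucose through to lactate or are other targets of the response to low oxygen. They were taken as a named list and read in single-nucleus chromatin accessibility libraries (scATAC-seq, in which a transposase cuts open DNA and each cut fragment carries the barcode of its nucleus). Male wild-type C57BL/6J mice aged 8 to 12 weeks were compared in 2 conditions. In the stroke condition a filament blocked the middle cerebral artery for 1 h, blood flow was restored, and tissue was collected at 48 h; in the sham condition the filament was inserted without sustained occlusion. Each condition gave 1 library of nuclei, extracted from the pooled flash-frozen tissue of 4 brains, with olfactory bulbs and cerebellum removed. The sham pool was made from whole brains and the stroke pool from the hemispheres on the occluded side, so the tissue sampled, the sequencing library and the stroke itself cannot be told apart. There was no replicate and therefore no statistical test: every interval below is an exact 95% interval for counting error only, which says nothing of the spread between animals.

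The libraries differed in quality before any gene was read. Cell Ranger called 6979 sham and 8740 stroke barcodes, and the median share of fragments in peaks was 38.5% in sham and 24.8% in stroke. Keeping barcodes with over 20% of fragments in peaks left 6817 sham and 5054 stroke nuclei, holding 73477848 and 52794287 fragments, with medians of 10356 and 9898 fragments a nucleus. Among kept nuclei the median share in peaks was still 38.8% in sham and 33.2% in stroke. Nuclei were placed in classes by accessibility at cell type marker genes, none of them among the 34, and are called astrocyte-like and so on. The astrocyte-like class held 394 sham and 541 stroke nuclei, the GABAergic neuron-like class 1095 and 617, the glutamatergic neuron-like class 1348 and 533, and the microglia and other myeloid-like class only 27 and 209. A further 3413 sham and 2608 stroke nuclei passed no gate. Markers left out of a gate were 1.35 to 6.10 times as accessible inside it as in the kept nuclei outside it. The weakest separation, 1.35 to 1.59, was for glutamatergic neuron-like nuclei. Oligodendrocyte-like and oligodendrocyte precursor (OPC)-like gates shared leading genes, and the endothelial-like and mural and leptomeningeal-like nuclei were shallow. The 10 leading genes of a gate, by fold over the other nuclei, held 0 of its own markers for glutamatergic neuron-like and astrocyte-like nuclei in either library. Those of glutamatergic neuron-like nuclei included receptor genes such as Vmn1r233 and Olfr464. For myeloid-like nuclei they held 0 own markers in sham and 3 in stroke.

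In oxygen, prolyl hydroxylases mark the alpha subunits of the hypoxia-inducible factors (HIFs) and the VHL protein has them destroyed. When oxygen falls the subunits survive, pair with ARNT, bind short core sites in DNA and raise transcription of glucose transporters, most glycolytic enzymes, lactate dehydrogenase A and vascular factors. In brain, glycolysis is prominent in astrocytes, which are thought to pass lactate to neurons, and HIF protein responds within hours of ischaemia. Chromatin accessibility reports open DNA, and neither protein level nor transcript level was measured here.

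Over all kept nuclei, Hk2, the inducible hexokinase that starts glycolysis, was the member past 1.5-fold between libraries, and the counts for the list depended on which barcodes were kept. Values are fragments over the gene body and the 2 kb upstream scaled to 1000000 fragments (CPM). Of the 34 members, all with at least the required 40 fragments, 1 was more than 1.5-fold higher in stroke against 9.88% of 20360 genes, and 0 were 1.5-fold lower against 0.329%. A ratio above 1 was found for 11 of 34 members beside 44.5% of all genes. The median log2 ratio of stroke over sham was -0.10 for members and -0.04 for all genes. When scaled to fragments in promoters, these medians were 0.06 and 0.12. With all called barcodes, those at or under 20% of fragments in peaks included, 0 members were higher against 20.4% of genes and 11 of 34 were lower against 17.8%, with medians of -0.42 for members and -0.23 for all genes. Because nuclei of all types are pooled here, fewer cells of a type and less accessibility per cell cannot be told apart.

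The HIF regulators were close to equal in both libraries apart from Epas1 and Egln3. Hif1a, which encodes the HIF-1 alpha subunit, stood at 39.7 CPM in sham (2915 fragments) and 39.9 CPM in stroke (2104 fragments), a ratio of 1.005 (0.949 to 1.06). Epas1, which encodes the HIF-2 alpha subunit and is known for its role in endothelium, stood at 40.04 CPM in sham and 50.04 CPM in stroke, a ratio of 1.25 (1.19 to 1.32). Their shared partner Arnt stood at 39.9 and 39.2 CPM, a ratio of 0.983 (0.929 to 1.04). Among the genes that switch HIF off, the oxygen sensor Egln1 stood at 56.7 and 53.4 CPM with a ratio of 0.942 (0.898 to 0.989), and Vhl at 18.8 and 18.5 CPM with a ratio of 0.98 (0.902 to 1.06). Egln3, a prolyl hydroxylase that is itself a HIF target, stood at 15.7 and 18.6 CPM with a ratio of 1.18 (1.09 to 1.29). Epas1 and Egln3 were thus the regulators whose intervals lay above 1, both under 1.5-fold. The pooled Epas1 ratio was not shared by all classes. It was 1.03 (0.948 to 1.11) in nuclei that passed no gate and 0.957 in astrocyte-like nuclei. In endothelial-like nuclei 2 regulators could be read, Epas1 among them, and 0 had a ratio above 1. In mural and leptomeningeal-like nuclei 3 of the 4 regulators read were above 1, Epas1 among them.

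Transport genes were near balance. Slc2a1, the glucose transporter of the blood-brain barrier, stood at 41.3 CPM in sham and 46.6 CPM in stroke, a ratio of 1.13 (1.07 to 1.19). The neuronal glucose transporter Slc2a3 had a ratio of 0.998, and the lactate carriers Slc16a1 and Slc16a3 had ratios of 1.06 and 0.933. In the upper, energy-investing stage of glycolysis, Hk2 contrasted with Hk1, the constitutive brain hexokinase, which stood at 132 CPM in sham and 122 CPM in stroke with a ratio of 0.92 (0.891 to 0.949). Pfkfb3, whose product makes the activator of phosphofructokinase, had a ratio of 1.15 (1.11 to 1.199), while the phosphofructokinase subunits were lower or level: Pfkl 0.788 (0.751 to 0.827), Pfkm 0.829 and Pfkp 0.963. The isomerases Gpi1 and Tpi1 had ratios of 0.93 and 0.912, and the aldolase Aldoc 1.09. The annotation holds 2 protein-coding records named Aldoa, aldolase A, and the longer one, chr7:126800790-126809108, was the one counted as a member. That window holds none of the RefSeq starts of Aldoa, so its ratio of 0.887 and its counts elsewhere in the text do not measure the aldolase gene itself. The other record, chr7:126795234-126800751 with its upstream 2 kb, holds those starts and stood at 55.1 CPM in sham (4045 fragments) and 45.8 CPM in stroke (2417 fragments), a ratio of 0.832 (0.79 to 0.875).

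All 8 genes of lower glycolysis and lactate dehydrogenase were within 1.5-fold, and 7 of them were below 1, beside 44.5% of all genes with a ratio above 1. The ratios were 0.883 for Gapdh, 0.837 for the mutase Pgam1, 0.868 and 0.862 for the enolases Eno1 and Eno2, and 0.858 for pyruvate kinase Pkm. Lactate dehydrogenase genes Ldha and Ldhb had ratios of 0.904 and 0.919, and Pgk1, an X-linked phosphoglycerate kinase, was the member above 1, at 1.07. Of the other HIF targets, the angiogenic factor Vegfa stood at 33.6 and 29.6 CPM with a ratio of 0.88 (0.826 to 0.938), and Ndrg1, a stress-response gene abundant in myelinating cells, at 28.4 and 33.6 CPM with a ratio of 1.18 (1.11 to 1.26). The mitophagy gene Bnip3 had a ratio of 0.876, the vasodilator peptide gene Adm 1.08, Ankrd37 0.814 and the collagen prolyl hydroxylase P4ha1 0.932. Some windows cannot be assigned to 1 gene: 100% of the Aldoa window and 78.3% of the Ankrd37 window lay in other protein-coding genes, as did 20.5% of Hif1a, 21.9% of Aldoc and 23.0% of Tpi1.

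**Figure D1:**
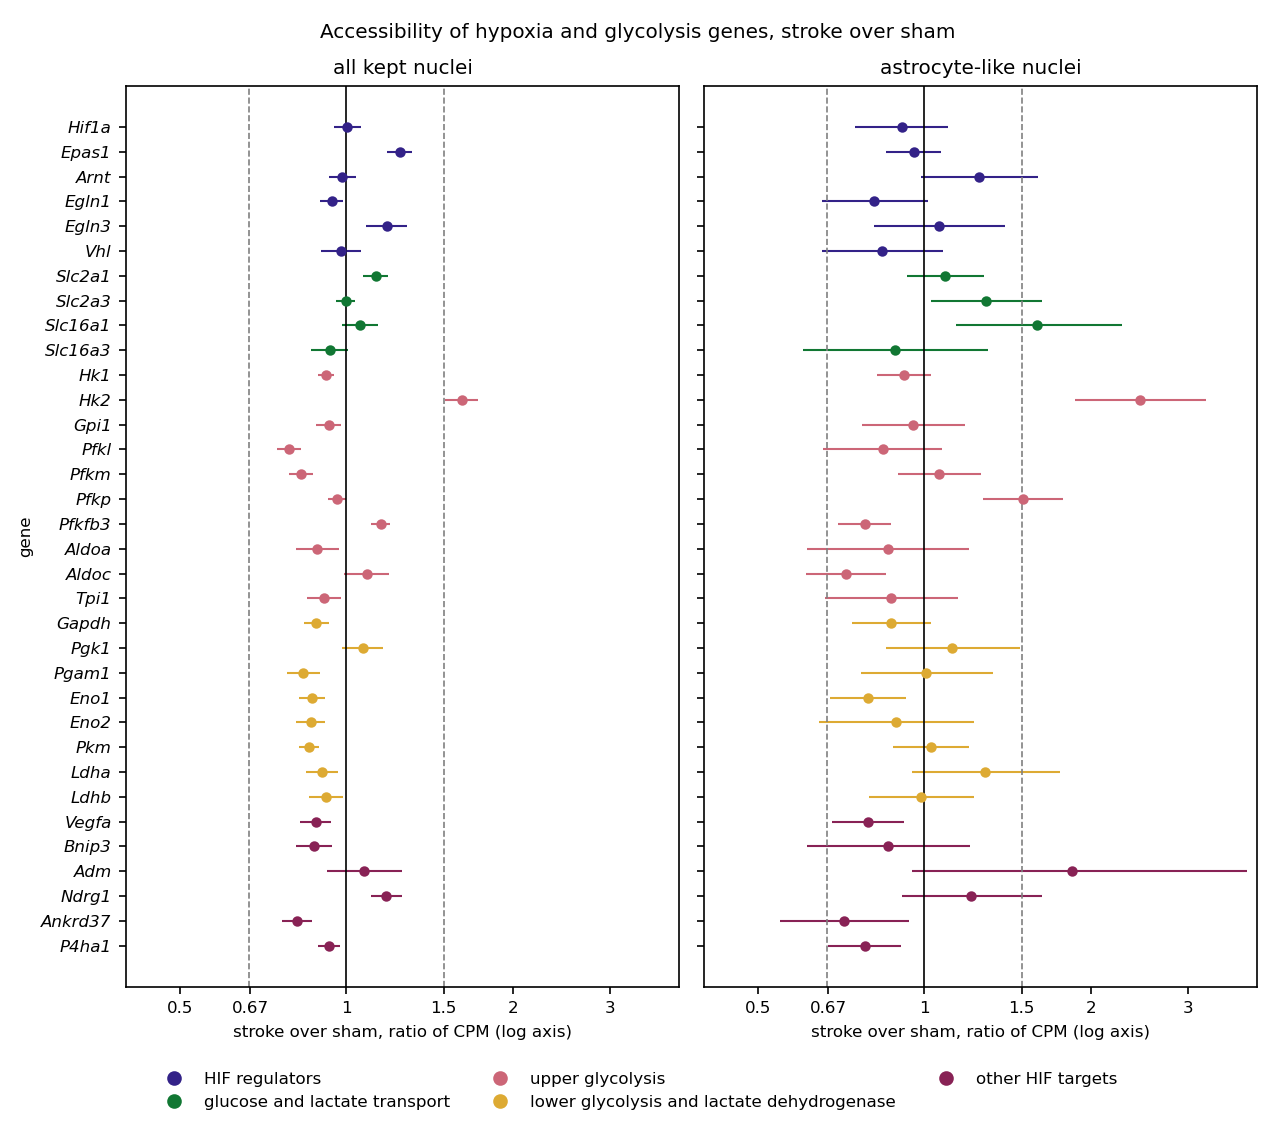
Ratio of stroke over sham CPM for each of the 34 genes (log axis) in all kept nuclei (left) and astrocyte-like nuclei (right); points are single libraries compared, horizontal lines exact 95% counting intervals, dashed lines 1.5-fold either way, colours the role. Hk2 is past 1.5-fold in both panels, at 1.62 and 2.45, and most other genes lie near 1; Aldoa is plotted for its longer annotated record.

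Hk2 is on the minus strand of chromosome 6 at chr6:82725025-82774454 (mm10). Over all kept nuclei it stood at 20.6 CPM in sham (19.6 to 21.7, 1515 fragments) and 33.4 CPM in stroke (31.8 to 35.0, 1762 fragments), a ratio of 1.62 (1.51 to 1.73). Part of that pooled ratio moved with which nuclei were counted. It was 1.45 without the myeloid-like nuclei, 1.33 when the stroke classes were weighted to their shares in sham, and 1.498 over all called barcodes, none of them past 1.5-fold. Nuclei that passed no gate stood at 22.0 CPM (840 fragments) in sham and 26.5 CPM (795 fragments) in stroke, a ratio of 1.203 (1.09 to 1.33). In those nuclei macrophage markers summed to 75.2 and 94.0 CPM, with 8 of 8 higher. Markers of microglia and other myeloid cells summed to 558 and 580 CPM, with 15 of 20 higher. Reactive astrocyte genes summed to 158 and 181 CPM, with 8 of 13 higher. The part of these cells in the ungated Hk2 ratio was not tested. Over all kept nuclei the most accessible Hk2 window lay at the start and was also higher, with 262 and 237 fragments, 1.26 (1.05 to 1.51). The difference in astrocyte-like nuclei, described below, lay mainly away from the start. The 300-base RefSeq promoter of Hk2 is shown because it held 2 HIF core matches. It lies at chr6:82774405-82774704 on the minus strand (GRCm38.p6), runs from 250 bases before to 50 after the start, and has the matches in capitals.
Hk2 promoter: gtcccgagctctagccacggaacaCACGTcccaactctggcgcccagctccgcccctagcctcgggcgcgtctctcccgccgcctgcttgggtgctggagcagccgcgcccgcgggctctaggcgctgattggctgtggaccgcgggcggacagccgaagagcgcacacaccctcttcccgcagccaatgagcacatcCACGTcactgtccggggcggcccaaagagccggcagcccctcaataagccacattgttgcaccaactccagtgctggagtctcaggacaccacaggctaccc

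Within astrocyte-like nuclei the difference at Hk2 was larger, and 3 further members passed 1.5-fold. Here 4 of 34 members were 1.5-fold higher in stroke against 7.41% of 15569 genes, and 0 were 1.5-fold lower against 5.09%. The members' median log2 ratio was -0.10 beside -0.05 for all genes, and 14 of 34 were above 1 beside 44.5% of all genes. Hk2 stood at 21.3 CPM in sham (16.7 to 26.9, 72 fragments) and 52.3 CPM in stroke (45.9 to 59.3, 242 fragments), a ratio of 2.45 (1.88 to 3.24) that 134 of the 15569 genes exceeded. Pfkp, the platelet-type phosphofructokinase subunit, stood at 64.0 CPM (216 fragments) and 96.4 CPM (446 fragments), a ratio of 1.51 (1.28 to 1.78). Slc16a1, the carrier through which lactate leaves or enters cells, stood at 15.1 CPM (51 fragments) and 24.2 CPM (112 fragments), a ratio of 1.60 (1.14 to 2.28). The adrenomedullin gene Adm had 13 and 33 fragments, 3.85 and 7.13 CPM, and its ratio of 1.85 (0.949 to 3.83) had an interval that included 1. Hk2, Pfkp and Slc16a1 were therefore the members whose counting intervals lay above 1 among those past 1.5-fold. With a looser gate Pfkp and Slc16a1 stood at 1.49 and 1.43, short of 1.5-fold, and with fragments within 500 bp of the start alone Pfkp stood at 1.03.

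Other members in astrocyte-like nuclei lay closer to balance or lower in stroke. Aldoc, the astrocyte aldolase, stood at 86.2 CPM in sham and 62.2 CPM in stroke, a ratio of 0.722 (0.611 to 0.853). Pfkfb3 stood at 183 and 143 CPM, a ratio of 0.78 (0.698 to 0.872), opposite in direction to its ratio over all kept nuclei. Vegfa stood at 100 and 79.1 CPM, a ratio of 0.79 (0.68 to 0.919). Intervals also lay below 1 for Eno1 (0.792), P4ha1 (0.78) and Ankrd37 (0.717), and above 1 for Slc2a3 (1.29, 1.03 to 1.63). The HIF regulators ran from 0.813 for Egln1 to 1.26 for Arnt, with Hif1a at 0.91, Epas1 at 0.957, Egln3 at 1.06 and Vhl at 0.84, and all 6 intervals included 1. The remaining 17 members had ratios between 0.842 (Pfkl) and 1.29 (Ldha), with intervals that included 1.

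Other features of the astrocyte-like nuclei moved beside these values. The summed level of 13 reactive astrocyte genes was 201 CPM in sham and 508 CPM in stroke, with all 13 higher. The 17 astrocyte markers summed to 2913 and 2711 CPM. Markers of microglia and other myeloid cells, in which Hk2 was most accessible, summed to 473 and 502 CPM with 8 of 20 higher in stroke and none at 0 in either library, and the 8 macrophage markers to 56.6 and 65.0 CPM with 6 higher. Granulocyte markers summed to 22.2 and 24.9 CPM, with 1 of 8 at 0 in sham. Their part in the Hk2 value was not tested.

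**Figure D2:**
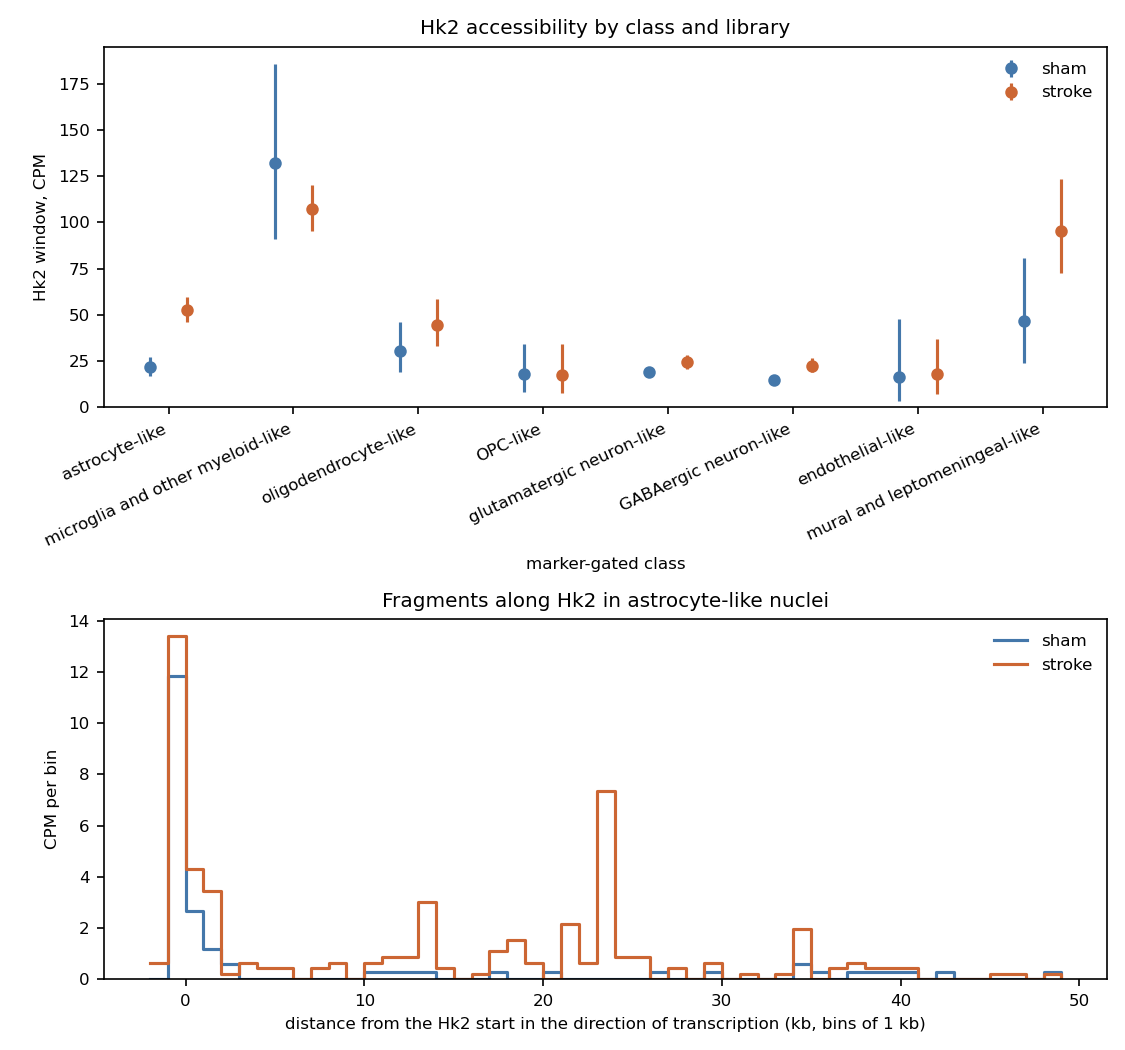
Top: Hk2 CPM by marker-gated class in sham (blue) and stroke (orange), with exact 95% counting intervals. Bottom: CPM per 1 kb bin along Hk2 in astrocyte-like nuclei against distance from the gene start in kb; the lines come close together at the start and separate in the body, most of all about 23.2 kb in.

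The excess at Hk2 in astrocyte-like nuclei lay mainly away from the start. Within 500 bp of the start there were 45 sham and 78 stroke fragments, a ratio of 1.26 (0.87 to 1.87). The median ratio of all genes within 500 bp of the start was 0.899 in these nuclei. In the rest of the window there were 27 sham fragments (7.996 CPM) and 164 stroke fragments (35.4 CPM), a ratio of 4.43 (2.94 to 6.93). Over all kept nuclei the rest of the window had 1170 and 1440 fragments, a ratio of 1.71 (1.58 to 1.85). Outside the promoter, 1 member was 1.5-fold higher over all kept nuclei, Hk2, against 9.53% of genes, and 0 were lower against 0.442%. In astrocyte-like nuclei 4 of 33 tested were higher against 11.4%, and 0 were lower against 8.46%. These were Hk2, Pfkp (177 and 391 fragments, 1.61), Slc16a1 (24 and 54, 1.64, 0.998 to 2.78) and Pgk1 (19 and 46, 1.77, 1.01 to 3.19). The Slc16a1 interval included 1. Promoter here means 500 bp either side of the GENCODE start. RefSeq promoters of members such as Hif1a, Hk1, Pfkm, Ldha and Ankrd37 fell in the rest of the window. The median log2 ratio over these windows was 0.01 for members and 0.01 for all genes in astrocyte-like nuclei.

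**Figure D3:**
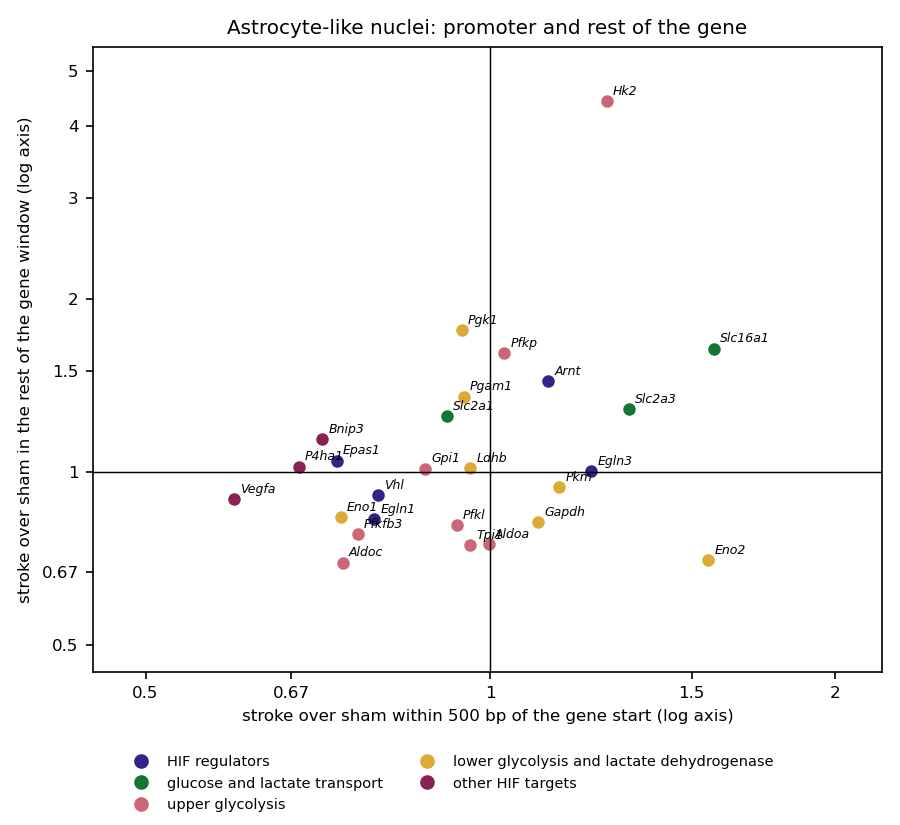
Stroke over sham in astrocyte-like nuclei for the 26 genes with enough fragments in both parts: the horizontal axis is the ratio within 500 bp of the gene start and the vertical axis the ratio in the rest of the window (both log axes), 1 point a gene, coloured by role. Hk2 stands far above the others on the vertical axis at 4.43 while its promoter ratio is 1.26.

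Reading each gene in windows of 500 bp placed the Hk2 difference more narrowly. In the pool of kept nuclei 1082 member windows had enough fragments, of which 35 (3.23%) were 2-fold higher in stroke against 1.97% of all windows, and 21 (1.94%) were 2-fold lower against 3.27%. The largest ratios were at 2 windows in an Hk2 intron. The window chr6:82751001-82751500, 23.2 kb into the gene, held 20 sham and 64 stroke fragments, a ratio of 4.45 (2.66 to 7.77). In astrocyte-like nuclei it held 0 sham and 29 stroke fragments, the latter 6.27 CPM (4.20 to 9.001), beside a floor of 0.888 CPM for the 3 fragments that a count of 0 allows in that library. It held 10 stroke fragments in myeloid-like nuclei, and 1 sham and 7 stroke fragments in mural and leptomeningeal-like nuclei. The nearby window chr6:82753001-82753500, 21.2 kb in, held 7 and 34 fragments, a ratio of 6.76 (2.95 to 18.1). Its astrocyte-like nuclei held 0 and 10 fragments, the latter 2.16 CPM (1.04 to 3.97), and its myeloid-like nuclei 0 and 10. With the exact upper limit for 0 sham fragments, the astrocyte-like intervals of this second window overlap. Both windows had under the required 40 fragments in astrocyte-like nuclei, so no ratio is given there, and they were picked as the largest of the windows read. Gated neuron-like nuclei held at most 5 fragments of either window in any neuronal class and library. Nuclei that passed no gate were not among these. In them glutamatergic neuron markers summed to 868 CPM in sham and 815 CPM in stroke, and GABAergic neuron markers to 842 and 849 CPM. The part of neurons among them in these windows was not tested.

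The central 300 bases of both windows are shown because these carried the largest differences, together with an Epas1 intron window for comparison, all on the plus strand of GRCm38.p6. The Hk2 windows are chr6:82751101-82751400 and chr6:82753101-82753400, and the Epas1 window is chr17:86770101-86770400. The letters searched were ACGTG and GCGTG, the HIF core, and TGAGTCA, the site of the AP-1 family of stress-response factors, on both strands with overlaps counted. None held a HIF core, and the second Hk2 window held 1 AP-1 match, in capitals. Of 496237 windows tested, 32.1% held a HIF core and 6.45% an AP-1 match, so a match or its absence in a single window is a description of the letters only.
Hk2 intron window 1: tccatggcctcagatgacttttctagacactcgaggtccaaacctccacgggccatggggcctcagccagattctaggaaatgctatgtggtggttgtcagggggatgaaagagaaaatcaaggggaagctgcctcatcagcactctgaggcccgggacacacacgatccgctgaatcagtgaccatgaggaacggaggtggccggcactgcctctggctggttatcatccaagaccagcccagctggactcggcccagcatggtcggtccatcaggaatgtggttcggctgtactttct
Hk2 intron window 2: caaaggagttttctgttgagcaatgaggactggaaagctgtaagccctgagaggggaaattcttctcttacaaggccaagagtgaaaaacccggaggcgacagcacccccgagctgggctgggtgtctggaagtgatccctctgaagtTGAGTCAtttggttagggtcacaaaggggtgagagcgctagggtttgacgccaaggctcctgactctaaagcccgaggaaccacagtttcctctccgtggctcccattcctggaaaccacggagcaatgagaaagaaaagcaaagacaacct
Epas1 intron window: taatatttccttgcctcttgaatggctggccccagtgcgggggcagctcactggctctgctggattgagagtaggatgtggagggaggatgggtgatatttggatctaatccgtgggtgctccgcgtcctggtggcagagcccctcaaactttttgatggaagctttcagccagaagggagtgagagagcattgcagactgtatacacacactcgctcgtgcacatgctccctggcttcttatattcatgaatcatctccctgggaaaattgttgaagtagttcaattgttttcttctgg

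The Epas1 intron window, 16.6 kb into the gene, held 39 sham and 91 stroke fragments over all kept nuclei, a ratio of 3.25 (2.21 to 4.86), of which astrocyte-like nuclei gave 20 and 53, or 5.92 and 11.5 CPM, short of 2-fold. Single windows of Pfkfb3 and Ndrg1 reached 3.53 and 3.39 over all kept nuclei. The lowest ratio there was 0.321 (0.137 to 0.674), with 39 and 9 fragments, upstream of the longer Aldoa record. An Hk1 window was next at 0.356 (43 and 11 fragments). Lower windows with more fragments included those of Pkm (157 and 47, 0.417), P4ha1 (131 and 47, 0.499) and Slc2a3 (80 and 27, 0.47). In astrocyte-like nuclei 77 member windows were read, of which 4 were 2-fold higher against 4.93% of all windows and 3 were 2-fold lower against 3.5%. The higher ones were introns of Slc2a1 (chr4:119121001-119121500, 6 and 36 fragments, 4.38, 1.83 to 12.7), Hk1 (chr10:62300001-62300500, 8 and 37, 3.37), Pfkp (chr13:6631501-6632000, 11 and 41, 2.72) and Slc2a3 (chr6:122795001-122795500, 15 and 43, 2.09). The lower ones were in Slc2a1 (chr4:119112501-119113000, 40 and 27, 0.49), Hk1 (chr10:62311501-62312000, 25 and 17, 0.496) and just upstream of Vegfa (chr17:46032501-46033000, 39 and 24, 0.449). Slc2a1 and Hk1 thus each held an intron window past 2-fold in either direction, while their whole-gene ratios in the same nuclei were 1.09 and 0.918. In glutamatergic neuron-like nuclei 138 member windows were read, with 1 higher against 2.23% of all windows and 7 lower against 5.01%. The higher one was in Pfkfb3 (50 and 51 fragments, 2.56), and the lowest ratio was in Pfkp (38 and 4, 0.264). In GABAergic neuron-like nuclei 107 were read, with 0 higher against 1.06% and 2 lower against 5.48%. These were in Slc2a3 (39 and 3, 0.163, 0.0322 to 0.513) and P4ha1 (42 and 7, 0.353).

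With both libraries pooled, most promoters of the list, taken around the GENCODE start, were more open than that of the median gene. Most were within 1.5-fold between libraries. The median accessibility within 500 bp of the start was 8.60 CPM for members and 3.01 CPM for all genes, and 26 of 34 members were above that median of all genes. Per kb of window, Gapdh stood at 7.25 CPM per kb, at percentile 99.3 of all genes, and Tpi1 at 4.42 CPM per kb, while Hk2 and Epas1 stood at 0.50 and 0.54 CPM per kb. In 25 members the most accessible 500 bp window lay within 750 bp of the start. In the other 9 it lay farther from the GENCODE start, from 2.8 kb in for Slc16a3 to 50.8 kb in for Pfkfb3. For Hif1a, Hk1, Pfkm, Ldha and Ankrd37 that window overlapped a RefSeq promoter. Around the GENCODE start Hif1a, Hk1 and Ankrd37 stood at 0.49, 0.33 and 0.87 CPM. Their 300-base RefSeq promoters in those windows stood at 15.7, 9.62 and 21.1 CPM in sham. Values around the GENCODE start therefore do not measure those promoters. The most accessible windows of the 34 members had a median ratio of 0.885, with Epas1 higher (1.55) and Vegfa lower (0.66). For all genes, promoters within 500 bp of the start had a median ratio of 0.92, with 31.7% above 1.

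With all kept nuclei pooled, 2 member promoters were 1.5-fold higher in stroke against 5.86% of genes, and 0 were lower against 2.27%. The median promoter ratio of all genes was 0.92 there, 0.899 in astrocyte-like nuclei and 0.879 in glutamatergic neuron-like nuclei. Epas1 had 336 and 371 promoter fragments, a ratio of 1.54 (1.32 to 1.79), while in astrocyte-like nuclei it had 154 and 155, 45.6 and 33.5 CPM, a ratio in the other direction of 0.734 (0.584 to 0.924). Also higher in the pool was Slc16a3, the lactate exporter of glycolytic cells, with 70 and 93, a ratio of 1.85 (1.34 to 2.56). These fragments were counted around the GENCODE start, and the 300-base RefSeq promoter of Slc16a3 at chr11:120948817-120949116 held 49 and 36 fragments, level at 0.667 and 0.682 CPM. Neither was past 1.5-fold when the promoter was taken as 1000 bp either side of the start. In astrocyte-like nuclei, of 26 promoters read, 2 were higher against 4.84% and 1 was lower against 7.81%. Slc16a1 had 27 and 58 fragments (1.57, 0.977 to 2.57) and Eno2, the neuronal enolase, 16 and 34 (1.55, 0.833 to 3.01), and both intervals included 1. The Vegfa promoter had 121 and 99 fragments, 35.8 and 21.4 CPM, a ratio of 0.597 (0.453 to 0.785), which was short of 1.5-fold when scaled to fragments in promoters. In glutamatergic neuron-like nuclei the Vegfa promoter had 151 and 32 fragments, a ratio of 0.532 (0.351 to 0.783), the only 1 of 25 promoters read there that was past 1.5-fold lower, against 7.26% of genes. Past 1.5-fold in the other classes were the promoters of Aldoc in GABAergic neuron-like nuclei (1.93, with 2.24% of genes higher), Slc2a1 and Pkm in oligodendrocyte-like nuclei (0.628 and 0.648, with 21.3% lower), and Epas1 (2.07, with 5.33% higher) and P4ha1 (0.569, with 21.5% lower) in mural and leptomeningeal-like nuclei, all with intervals that included 1.

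Promoters are shown for 4 more members: Slc16a1 and Pfkp, which passed 1.5-fold in astrocyte-like nuclei; Ldha, a classical HIF target; and Vegfa, whose promoter was lower in stroke. All are RefSeq windows of GRCm38.p6 from 250 bases before to 50 after a start, written along the gene, with HIF core matches (ACGTG or GCGTG, either strand, overlaps joined) in capitals. They lie at chr3:104638414-104638713 (Slc16a1, plus strand), chr13:6648722-6649021 (Pfkp, minus), chr7:46845554-46845853 (Ldha, plus) and chr17:46032328-46032627 (Vegfa, minus). They held 5, 4, 7 and 0 matches.
Slc16a1 promoter: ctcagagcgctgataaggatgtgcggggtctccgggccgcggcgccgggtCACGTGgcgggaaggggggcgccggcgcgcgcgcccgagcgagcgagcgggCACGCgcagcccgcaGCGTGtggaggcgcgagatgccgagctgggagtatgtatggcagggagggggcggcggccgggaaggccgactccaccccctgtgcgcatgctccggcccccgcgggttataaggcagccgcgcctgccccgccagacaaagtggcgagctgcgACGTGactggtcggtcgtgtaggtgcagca
Pfkp promoter: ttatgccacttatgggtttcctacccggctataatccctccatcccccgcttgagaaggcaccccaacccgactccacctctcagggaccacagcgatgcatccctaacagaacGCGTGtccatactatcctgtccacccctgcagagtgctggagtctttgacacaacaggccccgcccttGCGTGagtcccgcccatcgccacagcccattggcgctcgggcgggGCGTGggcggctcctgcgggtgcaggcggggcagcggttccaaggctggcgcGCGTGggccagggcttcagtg
Ldha promoter: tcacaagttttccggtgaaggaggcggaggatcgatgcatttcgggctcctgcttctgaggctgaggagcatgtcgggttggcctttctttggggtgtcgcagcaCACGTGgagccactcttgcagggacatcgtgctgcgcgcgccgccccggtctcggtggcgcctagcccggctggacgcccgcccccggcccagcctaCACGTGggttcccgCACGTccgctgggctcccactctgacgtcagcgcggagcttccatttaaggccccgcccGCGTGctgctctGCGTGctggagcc
Vegfa promoter: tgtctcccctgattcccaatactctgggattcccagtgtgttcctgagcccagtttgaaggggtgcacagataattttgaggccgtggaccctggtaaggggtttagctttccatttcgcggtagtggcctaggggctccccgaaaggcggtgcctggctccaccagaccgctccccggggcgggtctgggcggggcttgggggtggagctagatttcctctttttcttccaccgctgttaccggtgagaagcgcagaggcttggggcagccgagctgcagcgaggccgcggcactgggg

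Of 34 members, 31 had a promoter sequence, in 44 windows, and none was at hand for Epas1, Ndrg1 and Slc2a3. A HIF core was found in 35 of the 44 (79.5%) beside 43.8% of 32851 promoters of all RefSeq symbols at hand. ACGTG was found in 54.5% beside 19.6%, GCGTG in 56.8% beside 32.4%, and 2 or more matches in 59.1% beside 20.6%. Counted by gene, 27 of 31 members (87.1%) held a core in at least 1 promoter beside 46.7% of 27025 symbols. Those symbols were not limited to the 21911 protein-coding genes used elsewhere, so members and background differ in the kinds of gene they may hold. These shares describe letters, were not matched for base composition and include no measure of HIF binding. Several members among the 44 windows have more than 1 start, and windows of the same gene can overlap.

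The other classes differed in how many members could be read, so their counts past 1.5-fold are given beside the shares of all genes. In endothelial-like nuclei 0 of 7 members passed it, against 13.6% of genes higher and 16.8% lower. Oligodendrocyte-like nuclei had 6 of 27 past it, against 7.79% and 13.9%. Mural and leptomeningeal-like nuclei had 6 of 18, against 14.7% and 14.6%. Among GABAergic neuron-like nuclei, Hk2 was the member higher in stroke, at 14.4 CPM (184 fragments) in sham and 22.3 CPM (135 fragments) in stroke, a ratio of 1.55 (1.24 to 1.95) that was 1.35 by the mean of single nuclei, against 3.88% of genes, and 0 members were lower against 2.58%. In the same nuclei 8 striatal projection neuron markers summed to 1436 CPM in sham and 994 CPM in stroke, with 0 of 8 higher, and GABAergic neuron markers to 2165 and 1777 CPM, with 9 of 20 higher, and their part in the Hk2 value was not tested. Among glutamatergic neuron-like nuclei 0 members were higher against 3.83%, and 1 was lower against 2.68%. That was Slc16a3, at 24.1 CPM (400 fragments) and 14.1 CPM (93 fragments), a ratio of 0.584 (0.461 to 0.733), which was 0.735 with a looser gate and 0.672 when scaled to fragments in promoters. Hk2 in these nuclei stood at 18.8 and 24.0 CPM, a ratio of 1.28 (1.05 to 1.55). All 34 members had enough fragments in both neuronal classes.

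Among mural and leptomeningeal-like nuclei, cells of the vessel wall and brain coverings, 18 members could be read, with 2 higher against 14.7% and 4 lower against 14.6%. Hk2 stood at 46.3 CPM (12 fragments) and 95.4 CPM (58 fragments), a ratio of 2.06 (1.09 to 4.22), and Pfkp at 34.7 CPM (9 fragments) and 79.0 CPM (48 fragments), a ratio of 2.27 (1.104 to 5.27). Lower were Ndrg1 (39 and 38 fragments, 0.416, 0.259 to 0.667), Ankrd37 (0.545), Egln3 (0.577) and Gapdh (0.603), the last 3 with intervals that included 1. Astrocyte markers summed to 1196 and 1145 CPM in this gate and its own markers to 872 and 892 CPM. In nuclei that passed no gate the same lists summed to 720 and 788 CPM and to 233 and 250 CPM. The lists hold different genes and were not scaled for length, so their sums are not compared with each other. Reactive astrocyte genes summed to 224 and 401 CPM in mural and leptomeningeal-like nuclei, with 10 of 13 higher and 2 at 0 in sham. Granulocyte markers summed to 3.86 and 36.2 CPM in the same nuclei, with 5 of 8 higher, 7 at 0 in sham and 2 at 0 in stroke. Oligodendrocyte markers summed to 339 and 237 CPM there, with 5 of 17 higher and 5 at 0 in each library. The summed choroid plexus and ependymal markers had a ratio of 0.51 there, with 4 of 10 higher and 1 at 0 in sham. The part of astrocytes, granulocytes, oligodendrocytes and choroid plexus or ependymal cells in these ratios, higher or lower, was not tested. In endothelial-like nuclei only 7 members could be read, and 0 were higher against 13.6% and 0 lower against 16.8%.

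In oligodendrocyte-like nuclei 27 members could be read, with 2 higher against 7.79% and 4 lower against 13.9%. Slc2a3 had 21 and 60 fragments, 29.1 and 52.1 CPM, a ratio of 1.79 (1.07 to 3.10), and Arnt 18 and 44 fragments, a ratio of 1.53 (0.868 to 2.82). Lower were Ankrd37 (0.406, 0.254 to 0.641), Aldoa (0.518), Vegfa (0.558, 0.335 to 0.924) and Gapdh (0.601), of which the Ankrd37 and Aldoa windows lie mostly or wholly in other genes. The other Aldoa record, with the RefSeq starts, had 58 and 75 fragments there, a ratio of 0.811 (0.568 to 1.16), short of 1.5-fold. Astrocyte markers summed to 631 and 792 CPM in this gate, with 14 of 17 higher and 1 at 0 in sham, reactive astrocyte genes to 125 and 215 CPM, with 9 of 13 higher and 1 at 0 in sham, and mural and leptomeningeal markers to 152 and 225 CPM, with 13 of 18 higher and 1 at 0 in sham, and their part in these ratios was not tested. In OPC-like nuclei 12 members could be read, with 0 higher against 10.3% and 3 lower against 14.6%. These were Hif1a (44 and 23 fragments, 87.4 and 49.7 CPM, 0.569, 0.328 to 0.962), Epas1 (91 and 53 fragments, 181 and 115 CPM, 0.633, 0.443 to 0.898) and Ankrd37 (27 and 16 fragments, 0.644, 0.324 to 1.24). Astrocyte markers summed to 1151 and 949 CPM in OPC-like nuclei, with 5 of 17 higher, reactive astrocyte genes to 207 and 283 CPM, with 10 of 13 higher, and striatal projection neuron markers to 471 and 361 CPM, with 1 of 8 higher, while OPC markers summed to 3418 and 3218 CPM. The part of these in the OPC-like ratios was not tested. Myeloid-like nuclei were too few in sham for a ratio, and Hk2 there stood at 132 CPM (91.2 to 186, 33 fragments) in sham and 107 CPM (95.2 to 120, 296 fragments) in stroke, with intervals that overlap.

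With both libraries pooled, the classes differed in which members were most accessible. The highest class was at least 1.5 times the next in 4 of 34 members, against 18.6% of genes. Aldoc was highest in astrocyte-like nuclei, at 72.3 CPM against 21.7 CPM in OPC-like nuclei, a ratio of 3.33 (2.16 to 5.42). The other 3 were highest in endothelial-like nuclei. Slc2a1 stood at 193 CPM there and 81.6 CPM in myeloid-like nuclei, a ratio of 2.36 (1.87 to 2.97). Epas1 stood at 271 CPM there, 160 CPM in mural and leptomeningeal-like nuclei and 23.9 CPM in glutamatergic neuron-like nuclei, a ratio to the next of 1.69 (1.34 to 2.14), although within 500 bp of the start another class was highest for Epas1. Slc16a1 stood at 45.2 CPM and 27.2 CPM in oligodendrocyte-like nuclei, a ratio of 1.66 (0.994 to 2.72) whose interval included 1.

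The remaining 30 members had a highest class less than 1.5 times the next. Hk2 ran from 16.9 CPM in GABAergic neuron-like nuclei to 109 CPM in myeloid-like nuclei, with mural and leptomeningeal-like nuclei next at 80.7 CPM. Its isoform Hk1 was highest in astrocyte-like nuclei at 157 CPM and lowest in oligodendrocyte-like nuclei at 95.5 CPM. The neuronal transporter Slc2a3 was highest in GABAergic neuron-like nuclei at 93.1 CPM, with glutamatergic neuron-like nuclei next at 83.8 CPM. Ndrg1 stood at 103 CPM in both oligodendrocyte-like and endothelial-like nuclei and 12.9 CPM in GABAergic neuron-like nuclei, and the first 2 did not differ beyond counting error; in sham alone its highest class was mural and leptomeningeal-like, at 150 CPM (107 to 206, 39 fragments). Vegfa was highest in astrocyte-like nuclei at 88.0 CPM, and Pfkfb3 in myeloid-like nuclei at 181 CPM with astrocyte-like nuclei at 160 CPM, an order that was the reverse in sham nuclei alone. Counted over the list, astrocyte-like nuclei were highest for 8 members, mural and leptomeningeal-like for 7, endothelial-like for 6, glutamatergic neuron-like and myeloid-like for 4 each, GABAergic neuron-like for 3, and oligodendrocyte-like and OPC-like for 1 each. Over all genes the shares highest were 9.59% for astrocyte-like, 20.7% for mural and leptomeningeal-like, 13.6% for endothelial-like, 10.07% for glutamatergic neuron-like and 10.7% for myeloid-like nuclei, then 11.99% for GABAergic neuron-like, 9.82% for oligodendrocyte-like and 13.5% for OPC-like nuclei. The highest class of the pooled libraries was also the highest in sham alone for 23 of 34 members and in stroke alone for 21.

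**Figure D4:**
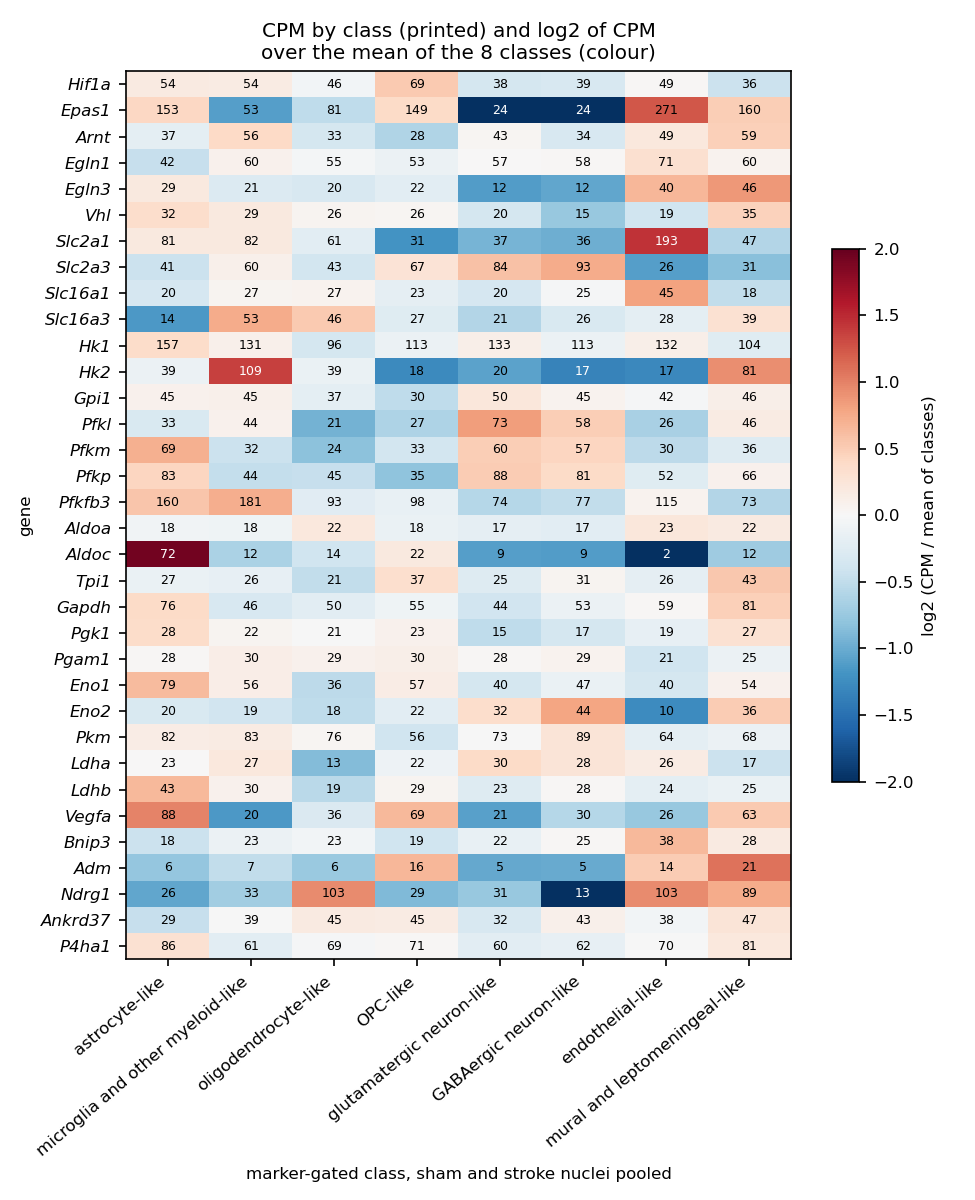
CPM of each gene (rows) in each marker-gated class (columns), sham and stroke pooled; the printed number is CPM and the colour is log2 of CPM over the mean of the 8 classes. Aldoc is strongest in the astrocyte-like column at 72.3 CPM and Slc2a1 and Epas1 in the endothelial-like column at 193 and 271 CPM.

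Genes of the same pathways outside the list were read in the same way. Over all kept nuclei, 0 of 10 other HIF pathway regulators passed 1.5-fold in either direction, against 9.88% of all genes higher and 0.329% lower. Among 35 other reported HIF targets, 1 was higher, the collagen cross-linking enzyme Lox (163 and 199 fragments, 1.70, 1.37 to 2.103), and of 24 other glycolysis isoforms and lactate carriers 1 was higher, Eno1b (1.53, 0.972 to 2.43). The 15 nuclear-encoded genes of mitochondrial respiration had 0 past 1.5-fold, a median log2 ratio of -0.19, and 1 above 1. All genes had a median of -0.04, with 44.5% above 1. In astrocyte-like nuclei 0 of 10 regulators, 4 of 34 targets and 3 of 19 isoforms and carriers were higher in stroke against 7.41% of all genes, and none of them lower against 5.09%. Among those with the largest ratios were Pfkfb1 (9 and 35 fragments, 2.84, 1.34 to 6.71), the early-response gene Ier3 (19 and 72 fragments, 2.77, 1.65 to 4.86), the transporter Slc16a4 (15 and 41 fragments, 1.99, 1.08 to 3.88) and the muscle enolase Eno3 (1.68, 1.05 to 2.74). The median log2 ratio of the 15 respiration genes was -0.21, with 2 above 1, beside -0.05 and 44.5% above 1 for all genes. Of the 15, 0 were past 1.5-fold higher and 1 past it lower.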

How the data were processed

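Mouse brain nuclei were profiled by 10x scATAC-seq, with 1 sham and 1 stroke library. The authors aligned reads and called cells with Cell Ranger ATAC 2.1.0 on mm10, and deposited fragment lists with a read count per fragment and per-barcode counts of fragments. Here each fragment was counted as 1. Barcodes called as cells with over 20% of fragments in peaks were kept. Fragments over gene body plus 2 kb upstream (GENCODE M21, the longest record where a symbol had several) were scaled to CPM. Classes came from latent semantic indexing of 5 kb tiles (components 2 to 20, no member windows) and marker accessibility averaged over each nucleus and its 30 nearest, with cuts of 1.4 (neurons) and 2 (others) times the mean of all nuclei, set on markers alone. No doublet caller was used; 42 barcodes occurred in both libraries. Genes needed 40 fragments over both libraries. Levels carry exact Poisson intervals and ratios exact conditional binomial intervals. Depth, up to 73477848 fragments, limits precision as those intervals show.

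The members, marker lists and pathway lists were chosen with earlier results of these data known. The text names all HIF regulators, members past 1.5-fold, classes at least 1.5 times the next, pathway genes among the 5 largest past 1.5-fold in astrocyte-like nuclei, and windows past 2-fold, here those with the largest ratios; Lox and Eno1b were added after their values were seen. Some pathway genes that the rule names are not reported here. Alternatives changed scaling, barcodes, windows, gates, folds and minimum counts. The ratios, their intervals and the 1.5-fold calls were tested on simulated Poisson counts. That is the spread the intervals assume, so the simulation says nothing of the spread between nuclei or animals. Python 3.11.15, NumPy 2.4.6, SciPy 1.17.1, pandas 2.3.3 and scikit-learn 1.9.0 were used.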

Additional observations from a re-analysis of the deposited data

How the results depend on the processing

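No paired analysis was possible because sham and stroke were 1 library each. Counts of members past 1.5-fold are given as higher and lower in stroke; where only 1 direction moved by over 1.5 times, that direction is named. Over all kept nuclei (1 higher, 0 lower) the count higher was 0 with all called barcodes, with 11 lower (20.4% of all genes were higher and 17.8% lower there), 0 at 2-fold, 0 with sham class shares, 0 without the myeloid-like nuclei and 2 within 500 bp of the start. Shares of all genes higher were 3.47% at 2-fold, 7.17% with sham class shares, 8.74% without the myeloid-like nuclei and 5.86% near the start. Astrocyte-like nuclei (4 and 0) gave 2 and 1 near the start, 1 lower by the mean of single nuclei, 1 higher at 2-fold and 2 higher with a looser gate. Near the start 4.84% of all genes were higher and 7.81% lower. The other shares were 9.75% lower by the mean, 2.21% higher at 2-fold and 7.18% higher with a looser gate. Oligodendrocyte-like nuclei (2 and 4) gave 4 higher with promoter scaling, 0 and 2 near the start, 5 higher by the mean of nuclei, 0 and 1 at 2-fold, and 0 and 0 with at least 100 fragments. Of all genes there, 15.6% were higher with promoter scaling, 18.7% higher by the mean, and 3.7% higher and 21.3% lower near the start. The shares were 1.92% and 3.10% at 2-fold and 5.32% and 8.93% with at least 100 fragments. OPC-like nuclei (0 and 3) gave 1 higher with promoter scaling, by the mean of nuclei, without the deepest 5% of barcodes or relative to the median gene, 0 lower near the start or at 2-fold, and 1 lower with at least 100 fragments. At the settings with 1 higher, the share of all genes higher ran from 10.7% to 13.7%. The share lower was 17.4% near the start, 3.31% at 2-fold and 8.02% with at least 100 fragments. Glutamatergic neuron-like nuclei (0 and 1) gave 0 lower with promoter scaling, at 2-fold or with a looser gate, and 2 by the mean of nuclei. In that order, 1.03%, 0.428%, 2.25% and 3.41% of all genes were lower. GABAergic neuron-like nuclei (1 and 0) gave 3 higher with promoter scaling, 0 at 2-fold, and 1 lower by the mean of nuclei. Beside these, 6.43% and 0.771% of all genes were higher and 4.18% lower. Endothelial-like nuclei (0 and 0) gave 1 higher with promoter scaling, 1 and 1 with all called barcodes or without the deepest barcodes, and 3 and 1 by the mean of nuclei. With promoter scaling 26.9% of all genes were higher there, and by the mean 26.9% were higher and 23.0% lower. The shares were 14.4% and 18.2% with all called barcodes and 15.6% and 18.7% without the deepest. Mural and leptomeningeal-like nuclei (2 and 4) gave 4 and 2 with the study's filter on fragments in peaks, 1 and 1 near the start, 4 higher by the mean of nuclei, 1 lower at 2-fold, and 0 and 0 with at least 100 fragments. Of all genes, 15.9% were higher and 17.2% lower with that filter, and 5.33% and 21.5% near the start. By the mean 22.6% were higher, and at 2-fold 3.46% were lower. With at least 100 fragments the shares were 11.1% and 10.6%. Members highest in a class by 1.5-fold (4) numbered 7 in sham nuclei alone and 10 near the start. Promoters within 1000 bp gave 0 higher over all kept nuclei and 1 in astrocyte-like nuclei, where promoter scaling gave 0 lower. Near the start, at 2-fold and with at least 100 fragments, fewer fragments or a stricter fold enter by construction; the cause of the other moves was not tested. Aldoa in oligodendrocyte-like nuclei reversed, to 1.28, by the mean of single nuclei. Moved among single genes were pooled Hk2 (1.299 near the start, 1.498 with all called barcodes, 1.804 with promoter scaling, 1.33 with sham class shares, 1.45 without the myeloid-like nuclei), in astrocyte-like nuclei Hk2 (1.26) and Pfkp (1.03) near the start and Slc16a1 (2.805 by the mean of nuclei), and in glutamatergic neuron-like nuclei Slc16a3 (0.735 with a looser gate). The other 149 of these counts and 190 single-gene values kept within their limits. The astrocyte-like Hk2 ratio ran from 2.19 to 2.77, except 1.26 near the start and 4.43 outside the promoter.

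Promoter scaling moved the median log2 ratio over all kept nuclei from -0.04 to 0.12 for all genes and from -0.10 to 0.06 for members. In astrocyte-like nuclei it moved the median from -0.05 to 0.13 for all genes and from -0.10 to 0.08 for members. With 1 library a condition, differences between animals, libraries and tissue sampled cannot be separated from stroke. The alternatives without the myeloid-like nuclei, without barcodes shared by the libraries, relative to the median gene, outside the promoter and with the other Aldoa record were chosen after seeing the data. Depth limits the classes with few nuclei: 7 members could be read in endothelial-like and 12 in OPC-like nuclei, and a member not past 1.5-fold there was not shown to be level.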
